A study of Mus musculus with 7 samples.

Results

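The genes described are the chains of collagen VI and collagen VIII, Col6a1, Col6a2, Col6a3, Col6a5, Col6a6, Col8a1, and Col8a2, which are 7 of the 55401 genes in the deposited table and were taken from it by exact gene name. They had been selected on measured values of the same WT and Trpc1-/- samples, so their levels and log2 fold changes (logFC) are given as a description, with no test. All 7 passed the filter on low counts, which left 16429 genes. RNA-Seq was used to ask how loss of TRPC1, a calcium-permeable cation channel, alters gene expression early after an osteoarthritis-inducing injury. Both groups consisted of male C57BL/6J mice that had destabilization of the medial meniscus (DMM) of the right knee at 10 weeks of age and were killed 2 weeks later, so every sample, controls included, came from an operated joint, and no unoperated sample was analysed here. By the labels, 4 samples were wild type (WT) and 3 were Trpc1-/- (allele Trpc1tm1Lbi), mice that lack part of the gene in all tissues, and each sample pooled tissue of 2 to 3 mice. The labels call the tissue knee articular cartilage, whereas the Methods list subchondral bone beside it.

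Collagen VI is the hallmark of the pericellular matrix, the thin shell that surrounds each chondrocyte and through which load reaches the cell. Its α1, α2, and α3 chains, encoded by Col6a1, Col6a2, and Col6a3, fold into a heterotrimer that assembles into beaded microfibrils, and the α4, α5, and α6 chains encoded by Col6a4, Col6a5, and Col6a6 resemble α3 and can take its place. Collagen VIII is a short-chain collagen whose α1 and α2 chains form hexagonal lattices, best known from the basement membrane beneath the corneal endothelium and from vessel walls.

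In GRCm38 with GENCODE M21, Col6a1 (chromosome 10, 76708792 to 76726168) and Col6a2 (chromosome 10, 76595762 to 76623630) lie beside each other on the minus strand. Col6a3 is on chromosome 1 (90765923 to 90843971), where the noncoding gene Gm36970 overlaps it on the same strand, so that reads in the overlap cannot be assigned to either. Col6a6 (105687809 to 105828160), Col6a5 (105856078 to 105960643), and Col6a4 (105989454 to 106096783) form a cluster on the minus strand of chromosome 9, and the nearest end of Col6a5, its 3′ end, is 10.106 Mb from Trpc1 on the same chromosome. Col8a1 is on chromosome 16 (57624258 to 57754737) and Col8a2 on chromosome 4 (126286793 to 126314330).

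The 250 bases upstream of the start are shown for the α1 chain of the heterotrimer, for both chains of collagen VIII, which varied together over the samples, and for Col6a5, whose mean went in the opposite direction. They are RefSeq sequences of GRCm38.p6, written 5′ to 3′ on the gene's strand, from chr10:76726045-76726294 (minus) for Col6a1, chr16:57754738-57754987 (minus) for Col8a1, chr4:126286544-126286793 (plus) for Col8a2, and chr9:105960644-105960893 (minus) for Col6a5. Capitals mark matches, on either strand, to 5 short motifs: the TATA box (TATAAA), the GC box (GGGCGG), the CCAAT box (CCAAT), the AP-1 site (TGANTCA), and the NFAT core (GGAAAA), the last for a factor that calcium activates through calcineurin.
Col6a1: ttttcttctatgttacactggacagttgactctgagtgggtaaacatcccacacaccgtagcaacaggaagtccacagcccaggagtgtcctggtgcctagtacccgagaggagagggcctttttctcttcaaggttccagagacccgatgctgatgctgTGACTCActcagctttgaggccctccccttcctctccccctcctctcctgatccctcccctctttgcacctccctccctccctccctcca
Col8a1: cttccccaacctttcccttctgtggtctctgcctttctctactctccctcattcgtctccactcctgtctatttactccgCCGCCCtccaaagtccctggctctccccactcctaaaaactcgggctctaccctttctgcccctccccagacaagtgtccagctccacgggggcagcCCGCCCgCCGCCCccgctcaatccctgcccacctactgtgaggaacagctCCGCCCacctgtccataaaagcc
Col8a2: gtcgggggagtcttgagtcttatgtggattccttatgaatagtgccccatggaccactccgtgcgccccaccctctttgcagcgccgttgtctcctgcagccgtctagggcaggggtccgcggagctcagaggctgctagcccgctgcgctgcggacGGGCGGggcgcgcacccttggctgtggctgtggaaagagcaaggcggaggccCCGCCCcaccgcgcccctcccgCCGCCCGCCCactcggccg
Col6a5: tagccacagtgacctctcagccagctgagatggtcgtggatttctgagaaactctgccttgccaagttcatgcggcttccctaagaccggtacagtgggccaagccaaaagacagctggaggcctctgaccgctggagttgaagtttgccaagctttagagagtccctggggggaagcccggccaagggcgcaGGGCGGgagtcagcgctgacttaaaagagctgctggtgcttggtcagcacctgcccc

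The Col6a1 window held an AP-1 match, 90 to 84 bases before the start, and none of the other motifs. An AP-1 match was present in 6.7% of all 32851 promoter windows of this length. Col8a1 and Col8a2 each held 4 GC boxes, the last pair of Col8a2 overlapping, and Col6a5 held 1. At least 1 was held by 32.7% of all windows, and the share with 4 was not counted. The GC content was 60.8% for Col8a1, 70.0% for Col8a2, and 58.8% for Col6a5, against a median of 52.4% over all windows. Among windows not printed, Col6a6 held 2 GC boxes, the window at the first of the 2 starts of Col6a2 held 3 GC boxes and 2 matches to the NFAT core, and Col6a3 held no match. The NFAT core was found in 20.4%, the TATA box in 12.4%, and the CCAAT box in 33.8% of all windows, and no chain had a TATA or CCAAT match within these bases. These matches describe letters and do not show binding.

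The total count per sample ranged from 52142451 to 118254070, so 3 counts, taken as the smallest detectable signal, corresponded to at most 0.0575 CPM, that is, counts after scaling each library to equal size. All 7 genes lay far above that level, and the spread between samples, not counting error, set the precision. Trpc1 itself was between 4.33 and 4.83 CPM in WT and between 3.04 and 3.79 CPM in Trpc1-/- samples (logFC -0.44), which is in the direction of the labels but counts the whole gene, including what the allele retains. Numbers in the labels fell into the 1300s for WT replicates 1 and 2 and all Trpc1-/- samples, and into the 1700s for WT replicates 3 and 4. They are read here as mouse numbers, and each range as a cohort, although the labels do not state this and each sample is a pool. All 9 chondrocyte markers were detected, as were markers of muscle, bone, marrow, and fat.

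The mean levels of Col6a1, Col6a2, Col6a3, Col8a1, and Col8a2 were lower in Trpc1-/- than in WT samples, with logFC from -0.60 to -0.40, whereas those of Col6a5 and Col6a6 were higher. Only Col8a1, lower in Trpc1-/-, and Col6a5, higher, showed no overlap between the groups. Of all tested genes, 6.42% were lower without overlap and 7.15% were higher without overlap. Median logFC was -0.40 over the 7 chains and -0.01 over all tested genes.

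Col6a1, the α1 chain, had 479, 560, 541, and 333 CPM in WT replicates 1 to 4 and 418, 408, and 264 CPM in Trpc1-/- replicates 1 to 3, normalized by TMM. WT replicate 4 lay below the higher Trpc1-/- samples, so the groups overlapped. Its mean was 478 ± 103 CPM over the 4 WT samples (all errors on means are SD) against 363 ± 86.0 CPM over the 3 knockouts, and logFC was -0.40 (SE 0.23).

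Col6a2, the α2 chain, had 426, 384, 337, and 216 CPM in WT replicates 1 to 4 and 285, 276, and 190 CPM in Trpc1-/- replicates 1 to 3. WT replicate 4 was again the only WT sample within the range of the knockouts. Its mean was 341 ± 90.8 CPM in WT and 250 ± 52.5 CPM in Trpc1-/- samples, with a logFC of -0.45 (SE 0.25). Col6a3, the long α3 chain, had 827, 660, 610, and 443 CPM in WT replicates 1 to 4 and 496, 537, and 364 CPM in Trpc1-/- replicates 1 to 3, the same arrangement of groups. Its mean was 635 ± 158 CPM in WT and 466 ± 90.7 CPM in Trpc1-/- samples, with a logFC of -0.45 (SE 0.23).

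Col8a1, the α1 chain of collagen VIII, was the steadiest of the 7 in WT. It had 48.5, 49.5, 46.8, and 41.8 CPM in WT replicates 1 to 4 and 35.5, 39.2, and 31.3 CPM in Trpc1-/- replicates 1 to 3. Every WT sample lay above every Trpc1-/- sample. The means were 46.6 ± 3.39 and 35.3 ± 3.97 CPM, and logFC was -0.40 (SE 0.10).

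Col8a2, the α2 chain, had 36.0, 30.7, 28.2, and 21.7 CPM in WT replicates 1 to 4 and 21.8, 21.4, and 14.5 CPM in Trpc1-/- replicates 1 to 3. The groups met at their edge, since WT replicate 4 and Trpc1-/- replicate 1 were nearly equal. The means were 29.2 ± 5.94 CPM in WT and 19.2 ± 4.10 CPM in Trpc1-/- samples, and the logFC of -0.60 (SE 0.20) was the most negative of the 7.

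Col6a5, the α5 chain, had 11.6, 4.91, 3.31, and 2.56 CPM in WT replicates 1 to 4 and 13.9, 12.8, and 15.9 CPM in Trpc1-/- replicates 1 to 3. The knockout samples were close together, and WT replicate 1 approached them while the other 3 WT samples were far lower. The means were 5.59 ± 4.11 CPM in WT and 14.2 ± 1.56 CPM in Trpc1-/- samples, with a logFC of 1.36 (SE 0.47).

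Col6a6, the α6 chain, had 18.0, 8.23, 7.40, and 4.45 CPM in WT replicates 1 to 4 and 10.4, 10.5, and 12.7 CPM in Trpc1-/- replicates 1 to 3. Here WT replicate 1 was the highest of all samples, and the knockouts lay within the WT range. The means of 9.53 ± 5.89 CPM in WT and 11.2 ± 1.27 CPM in Trpc1-/- samples differed by less than the WT spread, with a logFC of 0.24 (SE 0.41). Col6a4, the third gene of the cluster and not among the 7, was the least abundant, at 3.65, 0.558, 0.179, and 0.445 CPM in WT replicates 1 to 4 and 2.38, 1.57, and 2.13 CPM in Trpc1-/- replicates 1 to 3. It too was lowest in WT replicates 2 to 4, and its logFC of 0.81 (SE 0.90) was smaller than its error, with an edgeR adjusted P of 0.744.

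**Figure D1:**
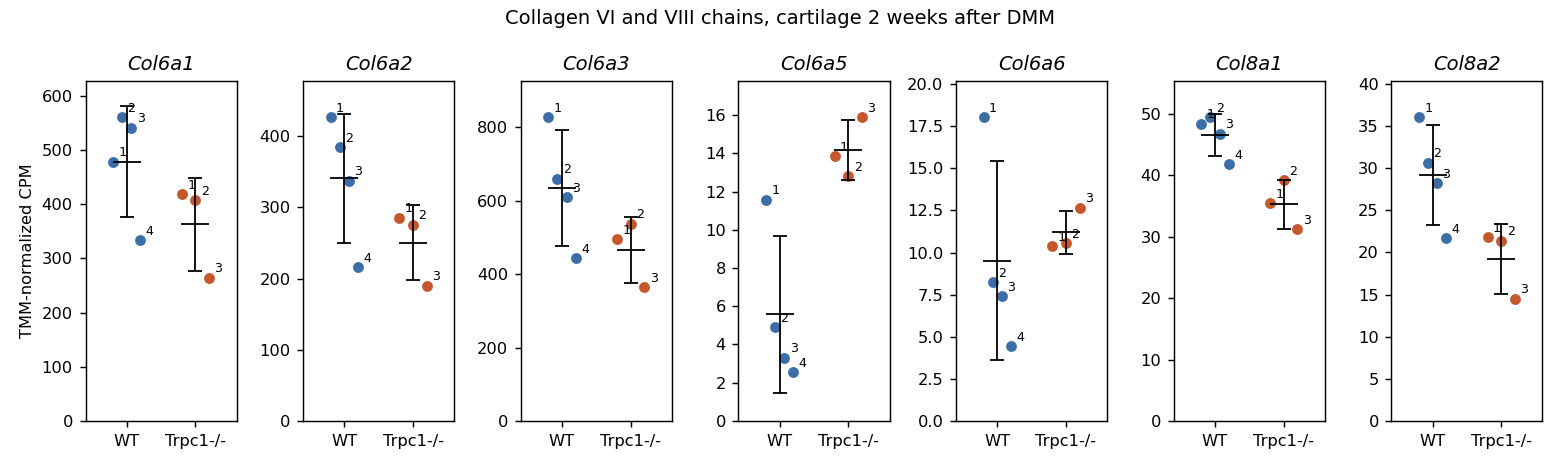
TMM-normalized CPM (linear axis from 0) of each chain in the 4 WT and 3 Trpc1-/- samples, with replicate numbers beside the points and black bars for mean ± SD. Groups are apart for Col8a1 and Col6a5, and WT replicate 4 is the lowest WT sample in all 7 panels.

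No gene was called by edgeR's quasi-likelihood test at a Benjamini-Hochberg adjusted P of 0.05 (0% of 16429 tested genes, 0 of the 7 chains). At an unadjusted P under 0.05, 902 genes were lower (5.49% of those tested, Col8a1 and Col8a2 among them) and 741 were higher (4.51%, Col6a5 among them). DESeq2 called 136 genes lower (0.828%, Col8a1 among them) and 158 higher (0.962%, none of the 7), and limma-voom called 1 gene in all. Groups were separate, with the Trpc1-/- samples lower, for 6.42% of all tested genes and 1 of the 7 chains, and with the Trpc1-/- samples higher for 7.15% and 1 chain. The mean was lower in Trpc1-/- samples for 51.9% of all tested genes and for 5 of the 7 chains. These counts rest on the contrast on which the chains were selected and nothing is read from them. In pooled tissue, fewer cells of a type and less RNA per cell cannot be told apart.

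Single samples and the cohort read from the numbers changed some of these values. Without WT replicate 4, which was the lowest WT sample for every chain, groups were separate for 6 chains, with Col6a1, Col6a2, Col6a3, Col8a1, and Col8a2 lower and Col6a5 higher, beside 11% of all tested genes lower and 9.49% higher. The same 6 were separate among mouse numbers of the 1300s alone, where 2 WT samples faced 3 knockouts and 17.8% of all tested genes were lower and 17.1% higher. Within that cohort, logFC was -0.52 for Col6a1, -0.69 for Col6a2, -0.68 for Col6a3, -0.47 for Col8a1, and -0.79 for Col8a2. Col6a5 had a logFC of 0.80 there, and Col6a6 turned to -0.22. No Trpc1-/- sample had a mouse number of the 1700s, so no value could be had within that cohort. Leaving out other samples made the differences over all samples larger or smaller, or moved the other chains. Without Trpc1-/- replicate 1, logFC was -0.51 for Col6a1, -0.55 for Col6a2, -0.50 for Col6a3, -0.40 for Col8a1, and -0.70 for Col8a2. Without Trpc1-/- replicate 2 it was -0.49, -0.53, -0.57, -0.49, and -0.69 for these chains in the same order. Without Trpc1-/- replicate 3, the lowest knockout for 5 chains, logFC was -0.21 for Col6a1, -0.28 for Col6a2, -0.30 for Col6a3, -0.32 for Col8a1, and -0.43 for Col8a2. Without WT replicate 1 it was -0.30 for Col6a3, -0.32 for Col6a2, 1.97 for Col6a5, and 0.73 for Col6a6, and without WT replicate 4 it was 0.01 for Col6a6.

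Per kilobase of exon, which allows chains to be compared with each other, with the summed length of all exons as the divisor, Col6a1 was the most abundant, at 109 ± 23.4 CPM per kb in WT and 82.9 ± 19.6 CPM per kb in Trpc1-/- samples. This placed it 295th of the tested genes in WT and 421st in Trpc1-/- samples by mean. Col6a3 followed, with 53.1 and 38.9 CPM per kb, and Col6a2 with 41.0 and 30.1 CPM per kb. The order of this pair depended on the length used. Divided by the longest coding transcript instead, Col6a2 had 73.3 and 53.8 CPM per kb and Col6a3 62.8 and 46.1 CPM per kb, while Col6a1 stayed first, at 117 and 88.6 CPM per kb. For scale, Col2a1, the main fibril collagen of cartilage, had 322 CPM per kb in WT and 231 CPM per kb in Trpc1-/- samples. The collagen VIII chains were lower by an order of magnitude, Col8a2 at 6.49 and 4.28 CPM per kb and Col8a1 at 5.95 and 4.51 CPM per kb. By the longest coding transcript their order turned, with Col8a1 at 9.13 and 6.91 CPM per kb and Col8a2 at 6.73 and 4.44 CPM per kb. Col6a6, at 1.04 and 1.22 CPM per kb, and Col6a5, at 0.593 and 1.51 CPM per kb, came last of the 7. Col6a5 was below Col6a6 in each of the 4 WT samples and above it in each of the 3 Trpc1-/- samples, by either length.

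The proportions of the heterotrimer chains hardly moved. Col6a1 made up 53.9 ± 4.35% of the per-kilobase sum of Col6a1, Col6a2, and Col6a3 in WT and 54.4 ± 1.32% in Trpc1-/- samples. Col6a2 made up 20.0 ± 1.68% and 19.8 ± 0.402%, and Col6a3 26.1 ± 2.95% and 25.7 ± 1.35%. Each share differed between the groups by less than the spread between samples. The sum itself was 203 ± 43.3 CPM per kb in WT and 152 ± 33.3 CPM per kb in Trpc1-/- samples, and WT replicate 4 (139 CPM per kb) lay within the range of the knockouts. The shares themselves depend on the length used, and by the longest coding transcript Col6a2 held 28.8 ± 2.06% and 28.6 ± 0.523%. Within collagen VIII, Col8a1 held 48.2 ± 3.67% of the sum of both chains in WT and 51.6 ± 3.53% in Trpc1-/- samples, and by the longest coding transcript 57.9 ± 3.59% and 61.2 ± 3.35%, again within the spread.

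The α3-type chains, which compete for the same place in the trimer, were divided differently. Col6a3 took 95.0%, 97.4%, 97.7%, and 97.9% of their per-kilobase sum in WT replicates 1 to 4 and 93.5%, 94.3%, and 90.2% in Trpc1-/- replicates 1 to 3. Every knockout sample lay below every WT sample. Col6a5 took 1.69%, 0.921%, 0.673%, and 0.718% in WT and 3.32%, 2.86%, and 5.01% in Trpc1-/- samples, with no overlap. Col6a6 took 1.78 ± 0.630% and 3.02 ± 0.933%, with overlap, and Col6a4 stayed under 1% in every sample. These shares rest on the same libraries and the same contrast as the levels above.

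**Figure D2:**
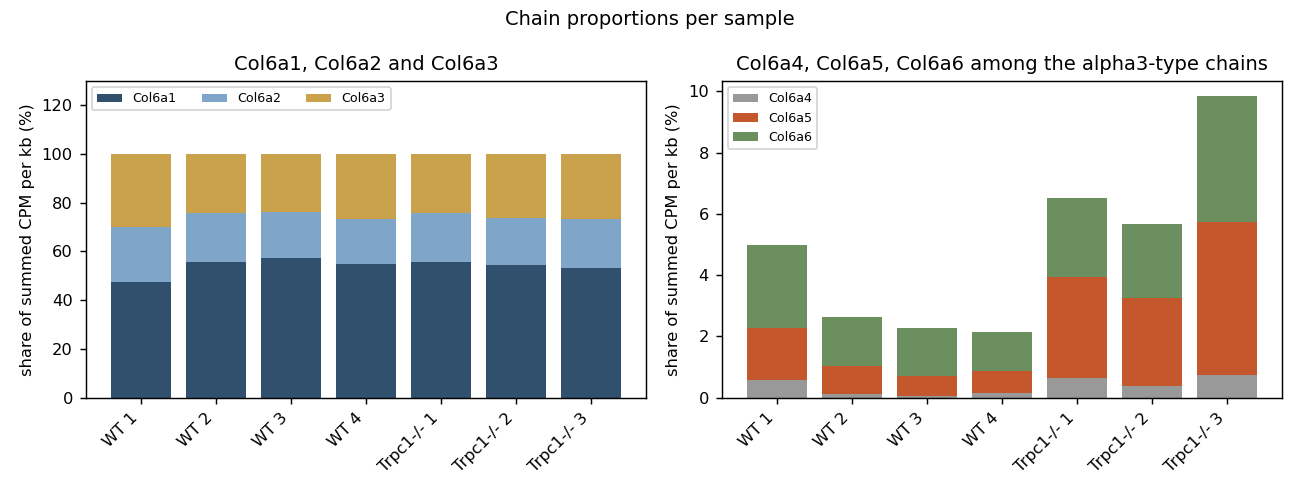
Left, shares (%) of Col6a1, Col6a2, and Col6a3 in their summed CPM per kb in each sample, and right, shares (%) of Col6a4, Col6a5, and Col6a6 in the sum that also includes Col6a3. The shares at left are alike in both groups, and Col6a5 takes at most 1.69% in WT and at least 2.86% in Trpc1-/- samples.

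Over the 7 samples, Col6a1, Col6a2, Col6a3, Col8a1, and Col8a2 varied together, within and across collagens VI and VIII. Pearson's r of log2 CPM was 0.92 between Col6a1 and Col6a2, 0.86 between Col6a1 and Col6a3, and 0.98 between Col6a2 and Col6a3. It was 0.94 between Col8a1 and Col8a2. With Col6a1, Col6a2, and Col6a3 in turn, Col8a2 had r = 0.88, 0.95, and 0.97, and Col8a1 had r = 0.84, 0.83, and 0.86. Col6a5 and Col6a6 had r = 0.84 with each other and 0.98 once each group was centred on its own mean, while with Col6a1 they had r = -0.32 and r = 0.02, or 0.21 and 0.28 after such centring. After centring, Col6a5 had r = 0.63 with Col6a2 and 0.70 with Col6a3, and Col6a6 had r = 0.66 and r = 0.72. Within the groups, Col6a5 and Col6a6 thus ran with Col6a2 and Col6a3 more than with Col6a1. These are descriptions over 7 samples that share library depth and tissue composition.

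Col6a2, Col6a3, Col6a5, Col6a6, and Col8a2 ranked the WT samples alike, with replicate 1 highest, then 2 and 3, and replicate 4 lowest. The same ranking was seen in the scores of fibroblast, superficial and synovial, tendon, mural, adipocyte, and Schwann cell markers, so it was not particular to muscle. It was also seen in the skeletal muscle marker score, the mean log2 CPM of Acta1, Ckm, Myh1, Myh4, and Tnnt3. That score was 7.51, 5.10, 4.73, and 2.74 in these WT samples and 5.51, 6.49, and 7.25 in Trpc1-/- replicates 1 to 3. Muscle RNA was thus highest in WT replicate 1, where Col6a6 was highest too, and lowest in WT replicate 4. The summed level of the 5 markers ranged from 49.5 to 1067 CPM in WT and from 320.7 to 878.2 CPM in Trpc1-/- samples, none was at 0, and all 5 had a higher mean in the knockouts, with overlap. The score was 1.40 higher in Trpc1-/- samples, with an exact two-sided permutation P of 0.314 and an adjusted P of 0.471 over 15 marker lists.

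With the muscle score as a covariate in edgeR, a fit chosen after seeing the data, logFC was 1.01 for Col6a5 and -0.13 for Col6a6. For the other chains it was -0.44 for Col6a1, -0.59 for Col6a2, -0.60 for Col6a3, -0.44 for Col8a1, and -0.71 for Col8a2.

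**Figure D3:**
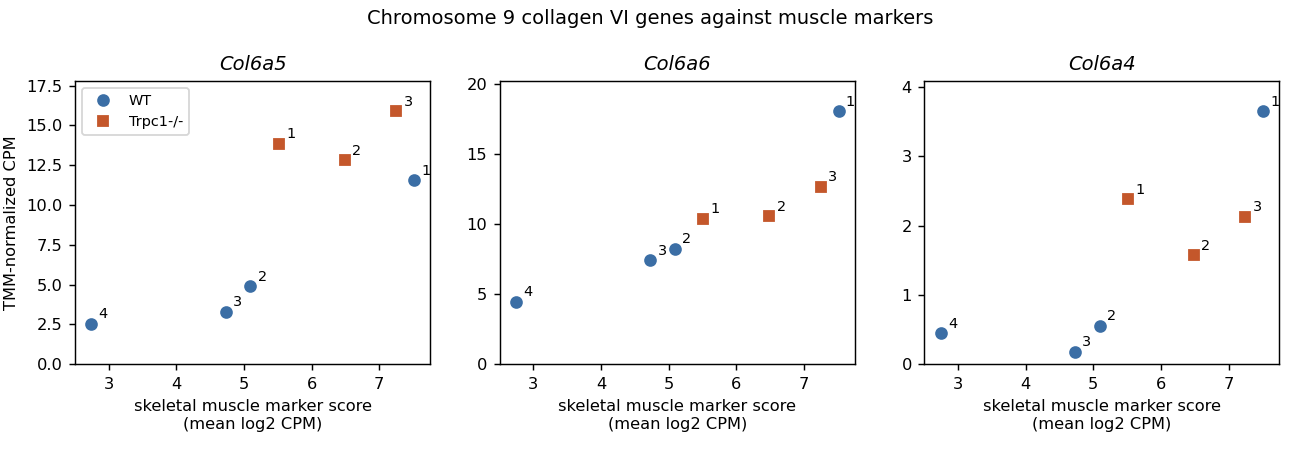
CPM (linear axis) of Col6a5, Col6a6, and Col6a4 against the skeletal muscle marker score (mean log2 CPM of 5 genes), 1 point per sample with its replicate number, circles WT and squares Trpc1-/-. Col6a6 has the same order over the 7 samples as the score, and Col6a5 is under 5 CPM in WT replicates 2 to 4.

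Genes whose log2 CPM most resembled that of a chain over the 7 samples were sought among protein-coding genes with a mean of at least 5 CPM. For the mean of Col6a1, Col6a2, and Col6a3, out of 11118 genes, these were Frk, Tmem263, Eps8, Pdlim4, and Mmp2, with r from 0.979 to 0.986. For Col8a1 they were Tmbim1, Copg1, Loxl3, Tmem39a, and Cdr2l, with r from 0.986 to 0.995, and for Col8a2 they were Fam114a1, Homer3, Rin2, Tgfb3, and Tcaf1, with r from 0.982 to 0.999. The search was extended to Col6a6 after seeing the data. It most resembled Pfkm, Trdn, Xirp2, Pvalb, and Tnnt3 (r from 0.978 to 0.987), of which Tnnt3, a fast troponin, is also in the muscle list.

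Marker levels of other cell types moved beside the chains. The chondrocyte score, the mean log2 CPM of 9 genes such as Acan, Col2a1, and Sox9, was 0.53 lower in Trpc1-/- samples, with all 9 markers lower in mean, overlap between the groups, and an exact permutation P of 0.0857 (adjusted 0.306). The fibroblast score was 0.24 lower, with 7 of 8 markers lower, and the score of 5 superficial zone and synovial genes was 0.23 lower, with every knockout below every WT sample. The osteoblast and osteocyte score was 0.34 lower, with all 8 markers lower, and the mural and endothelial scores, for cells of vessel walls, were 0.26 and 0.13 lower. The adipocyte score was 0.40 higher, with all 5 markers higher and overlap (exact permutation P of 0.2, adjusted 0.333). Its marker Adipoq (39.0 ± 2.03 and 49.0 ± 3.97 CPM) was without overlap and called higher by DESeq2, as 0.962% of all tested genes were. The B cell score was 0.38 higher, without overlap, and the macrophage and neutrophil scores were 0.22 and 0.29 higher, with overlap. The erythroid score was 0.55 higher, with all 8 markers higher and no overlap (exact permutation P of 0.0286, the smallest that 4 against 3 samples allow, adjusted 0.306).

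The summed level of the chondrocyte markers ranged from 4600 to 4927 CPM in WT and from 2632 to 4966 CPM in Trpc1-/- samples. That of the fibroblast markers ranged from 778.3 to 915.1 CPM and from 739.4 to 803.4 CPM. Set against the chondrocyte score, a scale chosen after seeing the data, 4 of the 5 chains no longer had the lower mean, with differences in log2 of 0.13 for Col6a1, 0.10 for Col6a2, 0.10 for Col6a3, 0.12 for Col8a1, and -0.07 for Col8a2. Set against the fibroblast score, all 5 stayed lower, from -0.36 for Col8a2 to -0.16 for Col6a1. Col6a5 was higher on both scales, by 2.12 and 1.83. With the erythroid score as a covariate, likewise chosen after seeing the data, logFC was -0.49 for Col6a1, -0.16 for Col6a2, 0.0019 for Col6a3, -0.29 for Col8a1, -0.28 for Col8a2, 1.41 for Col6a6, and 2.86 for Col6a5. The erythroid score did not overlap between the groups, so a fit with it separates the score poorly from genotype. The part of tissue composition in the results was not tested further.

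**Figure D4:**
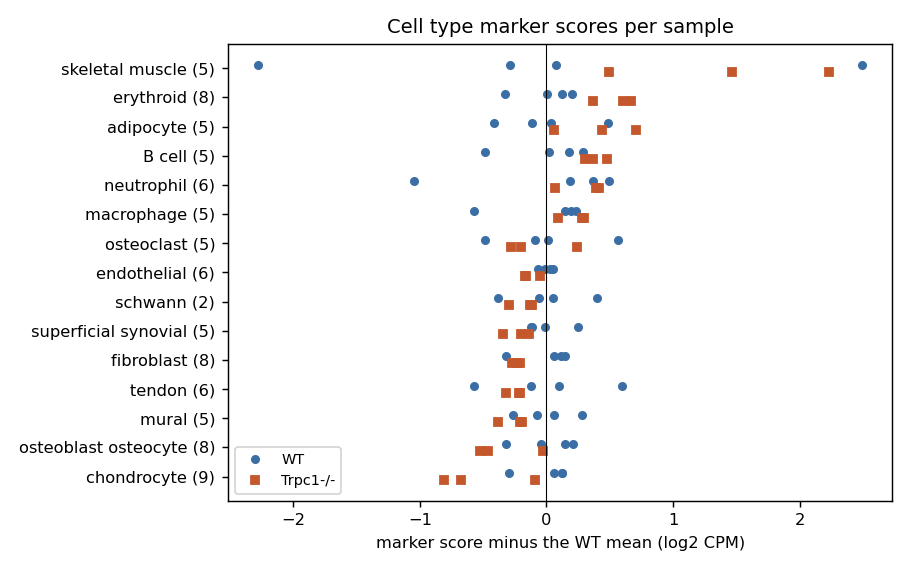
Score of each cell type marker list (mean log2 CPM, number of tested markers in parentheses) in each sample, shown as the difference from the WT mean, circles WT and squares Trpc1-/-. The muscle list spreads most within WT, the 3 Trpc1-/- samples lie above all WT samples for the erythroid and B cell lists, and they lie below all WT samples for the superficial and synovial list.

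The receptors through which cells bind these collagens were mostly lower in mean in Trpc1-/- samples, 10 of 11 genes with a median logFC of -0.28, and edgeR called none of them. At an unadjusted P under 0.05, 4 were lower and 0 higher, where 5.49% and 4.51% of all tested genes were. These shares are the background for this list and each that follows. So are 0.828% called lower by DESeq2, 51.9% lower in mean, and 6.42% lower without overlap, all of tested genes. Itga10, the collagen-binding integrin subunit of chondrocytes, had 71.0, 50.5, 46.4, and 46.7 CPM in WT replicates 1 to 4 and 29.6, 40.1, and 27.6 CPM in Trpc1-/- replicates 1 to 3. All knockouts lay below all WT samples, with a logFC of -0.73 (SE 0.19, edgeR adjusted P of 0.395), and it was the only receptor called by DESeq2. With the erythroid score as a covariate its logFC was -0.03. Antxr2, an anthrax toxin receptor that takes up collagen VI, had 98.0 ± 4.62 CPM in WT and 85.6 ± 1.20 CPM in Trpc1-/- samples, without overlap (logFC -0.20, SE 0.07). Ddr1, a receptor tyrosine kinase for collagen, was also apart, at 7.38 ± 0.306 and 6.06 ± 0.763 CPM. With the erythroid covariate, logFC was -0.32 for Antxr2 and -0.11 for Ddr1. Cspg4, the NG2 proteoglycan that binds collagen VI, had 99.2 ± 20.1 and 71.1 ± 19.0 CPM, with overlap.

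Partners in the pericellular and adjoining matrix were lower in mean for 18 of 18 genes, with a median logFC of -0.36, and edgeR and DESeq2 called none, with 4 lower and 0 higher at an unadjusted P under 0.05 in edgeR. Emilin1, an elastic fibre glycoprotein, had 88.3 ± 5.34 CPM in WT and 70.7 ± 6.98 CPM in Trpc1-/- samples, and fibrillin-1 (Fbn1) had 207 ± 41.6 and 146 ± 14.4 CPM, both without overlap. Nid2, a basement membrane linker, had a logFC of -0.41 (SE 0.16), with overlap. The genes of chain synthesis and folding were lower in mean for 17 of 18 (median -0.24), with 5 lower at an unadjusted P under 0.05 and 3 called by DESeq2. These were the prolyl hydroxylases P3h2 (18.5 ± 0.698 and 13.8 ± 1.47 CPM) and P4ha2 (24.8 ± 2.43 and 17.1 ± 1.93 CPM) and the collagen galactosyltransferase Colgalt2 (36.4 ± 7.49 and 22.2 ± 4.07 CPM), each without overlap. Of processing and turnover genes, 12 of 12 were lower in mean (median -0.29), 3 of them at an unadjusted P under 0.05, the proteinases Mmp11, Bmp1, and Mmp14, and none was called by edgeR or DESeq2. With the erythroid covariate, Bmp1 went from a logFC of -0.46 to -0.01 and Mmp14 from -0.32 to -0.09, whereas Mmp11 went from -0.47 to -0.57. In that fit, P3h2 went from -0.43 to -0.26, P4ha2 from -0.54 to -0.45, and Colgalt2 from -0.71 to -0.60. Emilin1 stayed at -0.32, while Fbn1 went from -0.50 to -0.18 and Nid2 from -0.41 to -0.17.

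Members of other collagen families had lower means too. All 11 fibrillar collagens (median logFC -0.46), all 6 tested basement membrane collagens (median -0.41), and all 8 tested FACIT collagens, which sit on fibril surfaces (median -0.45), were lower in mean in Trpc1-/- samples, and edgeR and DESeq2 called none. At an unadjusted P under 0.05 in edgeR, 3, 3, and 2 of them were lower. Col27a1 had a logFC of -0.77 (SE 0.27) without overlap, Col4a1 -0.34 (SE 0.12) without overlap, and Col9a3 -0.58 (SE 0.23) with overlap. Among the closest other collagens, Col10a1, the hypertrophic chondrocyte collagen and nearest relative of collagen VIII, had 655 ± 305 CPM in WT and 417 ± 112 CPM in Trpc1-/- samples, with a logFC of -0.65 (SE 0.37) and overlap. WT replicate 4 had 1070 CPM, and without it logFC was -0.31, against -0.13 in the 1300s alone and -0.08 with the muscle score as a covariate. Other settings made the Col10a1 difference larger. Its logFC was -0.87 without WT replicate 1, -0.90 without Trpc1-/- replicate 2, and -0.89 with the erythroid score as a covariate. Col28a1, a relative of collagen VI, was near 1 CPM in every sample (logFC 0.13, SE 0.22).

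**Figure D5:**
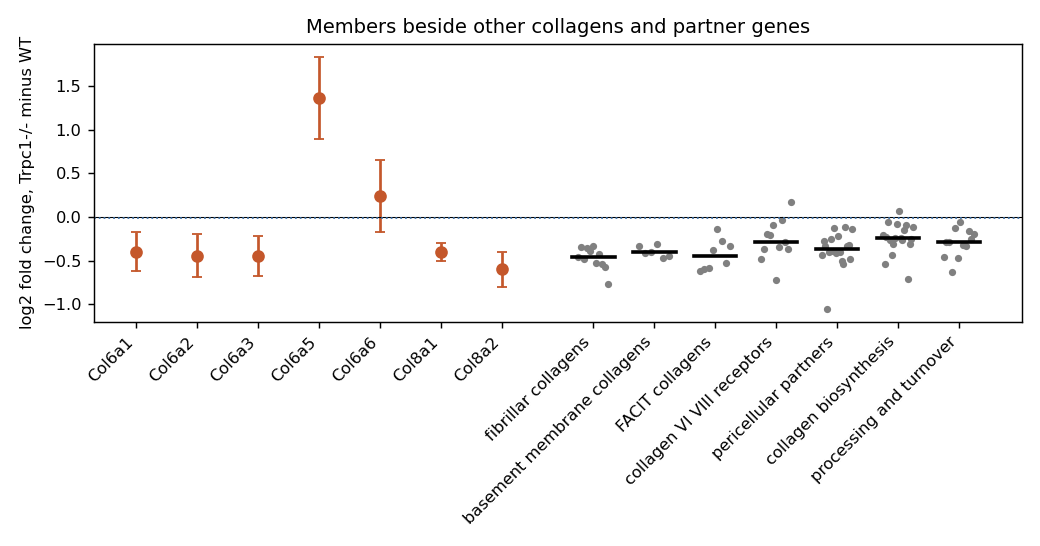
Log2 fold change, Trpc1-/- minus WT, of the 7 chains (red, error bars ± SE) and of each tested gene of 7 lists (grey, black line at the median), with the median of all tested genes as a dotted line near 0. Col6a5 and Col6a6 are the only chains above 0, and the list medians lie between -0.46 and -0.24.

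Outside the cluster, the neighbours of Col6a5 on chromosome 9 did not share its direction as a group. Within it, Col6a6 and Col6a4 had higher means too (logFC 0.24 and 0.81), each by less than its SE. Within 1 Mb on either side of the cluster, 27 other tested genes had logFC from -0.97 to 0.32 with a median of -0.09, and 10 were higher and 17 lower in mean. Groups were separate for 2 that were higher and 5 that were lower, beside 7.15% and 6.42% of all tested genes. DESeq2 called 3, all lower, beside 0.828% of all tested genes: D030055H07Rik, Abhd14b, and Parp3. Genotype at Trpc1 and any sequence difference linked to it on chromosome 9 cannot be told apart with these samples.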

How the data were processed

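RNA-Seq of 7 samples was analysed, 4 WT and 3 Trpc1-/- by the labels (the Methods give 3 and 4). The authors trimmed reads with cutadapt 2.5, aligned them to GRCm38 with HISAT2 2.1.0, estimated transcript coverage with StringTie 2.0.3, and deposited estimated counts per gene, unnormalized whole numbers for 55401 genes; tools and versions are from the submitters' processing notes. Because the counts derive from coverage, the assignment of reads shared by several genes is fixed upstream. GENCODE M21 supplied positions and exon lengths and RefSeq supplied promoters.

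Genes over 1 CPM in at least 2 samples were kept. In R 4.3.3, edgeR 4.0.16 (TMM, quasi-likelihood test, genotype alone, Benjamini-Hochberg over all 16429 genes, threshold 0.05) was used, with DESeq2 1.42.0 and limma 3.58.1 (voom) as alternatives beside other normalizations, low-count filters, the cohort, a replicate block, and each sample left out. SEs come from the F statistic. Marker scores are means of log2 CPM (prior count 1) with an exact permutation test. Levels between genes were compared per kilobase of summed exon, or of the longest coding transcript.

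The 7 genes and all lists were chosen with earlier results of these data known. The text names the 7 genes, Trpc1, and for each list the genes called by edgeR and the 3 with the smallest unadjusted P. It also names Col6a4, Col10a1, and Col28a1, and the 5 protein-coding genes over 5 mean CPM most correlated with the collagen VI trio, Col8a1, or Col8a2. Cspg4, Adipoq, the muscle and chondrocyte markers, the genes most like Col6a6, Col2a1 per kilobase, and the chromosome 9 genes called by DESeq2 were added after their values were seen, as were fits with the erythroid or muscle score and scales relative to marker scores. P values measure only the spread between these pools of mice. Floors cover counting error only, whereas SEs include the spread between samples. The genes most like Col6a5 are not reported here.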

Additional observations from a re-analysis of the deposited data

Results flagged for a closer look

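Of 31 groups of 4 WT values examined for a sample far from the others, 4 stood out, all through WT replicate 1. Chance sets apart about 1 in 20 such groups. Col6a4 was 3.65 CPM in WT replicate 1 and 0.179 to 0.558 CPM in the others, a gap of 0.891 of the range. Col6a3 held 95.0% of the α3-type chains in WT replicate 1 and at least 97.4% in the others, a gap of 0.83 of the range. The chondrocyte marker score was 6.77 there and at least 7.12 in the others (gap 0.848), and the macrophage score was 5.50 and at least 6.17 in all other samples of both groups, with a gap of 0.895 of the WT range. WT replicate 1 was also the shallowest library, with 52142451 counts.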

How the results depend on the processing

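No gene was called by edgeR under 2 other normalizations, 2 other filters, the cohort, or the replicate block. DESeq2 called 294 genes, 1 of the 7 chains, and 4 genes of the receptor and biosynthesis lists, voom 1 gene, and edgeR 2 with the erythroid score and 1 with the muscle score as a covariate, both chosen after seeing the data. With each sample left out in turn, 0 to 49 genes and 0 to 1 of the chains were called, the highest without WT replicate 1 (Col6a5, selected on this contrast, beside 49 of 16429 genes). Groups were separate for 2 chains, for 6 with the replicate block (which drops WT replicate 4) or the 1300s alone, and for 2 to 6 with a sample left out, the highest without WT replicate 4. Same-numbered samples did not deviate together (correlations -0.348, -0.205, and -0.044). So few pairs, in samples that differ in tissue composition, cannot decide whether the numbers pair them. The cause of the changes was not tested. With library size alone as the scale, groups were separate for 9.32% of tested genes lower and 1.9% higher, against 6.42% and 7.15%. Relative to chondrocyte markers, 1 chain was lower in mean, not 5.

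Signs turned for Col6a4 (-0.020 in the 1300s, -0.021 with cohort as a covariate), Col28a1 (-0.023 to 0.25 with a sample left out, -0.19 with the erythroid covariate), and, with that covariate, Col12a1 (0.19), Col7a1 (0.72), Col27a1 (0.16), and Col24a1 (0.17). The osteoclast score difference was 0.21 in the 1300s and -0.24 to 0.11 with a sample left out, and that of the neutrophil score -0.058 to 0.45. All chains were above 3 counts in every library, and whether depth limits their values was not tested.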
